A study of Mus musculus with 9 samples.

Results

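The histone deacetylase genes are 10 of the 38685 gene rows in a table of testis RNA from 9 mice. They were chosen by gene symbol: Hdac1, Hdac2, Hdac3 and Hdac8 of class I, Hdac4, Hdac5 and Hdac7 of class IIa, Hdac6 and Hdac10 of class IIb, and Hdac11, the only class IV gene. Hdac2 was picked because its level differed between Prm2-/- and Prm2+/+ testes, so its values are given as a description with no test. The other 9 genes came in by family name.

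Histone deacetylases remove acetyl groups from lysines of histones and other proteins, which in chromatin goes with compaction and lower transcription. Class I enzymes work inside large co-repressor complexes, class IIa enzymes shuttle between nucleus and cytoplasm and bring those complexes to MEF2 factors, and class IIb enzymes act largely on proteins outside chromatin. In the testis the balance of acetylation matters to spermatids, where histone H4 becomes hyperacetylated before transition proteins and then protamines take the place of most histones.

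The study compared 3 genotypes of C57BL/6 males, with 3 testis libraries each: wild-type (Prm2+/+), Prm2-heterozygous (Prm2+/-) and Prm2-deficient (Prm2-/-). Prm2 encodes protamine 2, and the mutant allele came from CRISPR/Cas9 editing in oocytes and is constitutive, not limited to a cell type. Prm2+/- males are fertile and Prm2-/- males are infertile. RNA was taken from whole testis freed of its tunica albuginea, and the ages of these males and whether littermates were used are not given in the sources used here. Sequencing read the 3′ end of poly(A) RNA, and a gene's level is given as a normalized count, which is its estimated read count divided by the library's size factor. In such a mixture of cells, fewer cells of a type and less RNA per cell cannot be told apart.

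The libraries held between 3629929 and 4490411 counts. Prm2 itself, the edited gene, had a mean of 33046 ± 5732 normalized counts in wild-type testes, 31891 ± 2287 in heterozygous ones and 37810 ± 4344 in Prm2-/- (SD, n = 3), so its 3′ reads did not separate the genotypes and do not check the labels. Spermatid markers summed to between 191003 and 213124 normalized counts in the 9 libraries and epididymal markers to at most 9.50, with Lcn5 and Lcn8 at 0 in all 9. Sertoli cell markers summed to between 672 and 896, with Amh at 0. Prm2+/+ replicate 3 stood apart, with a chi-square per gene of 27.4 to 34 in its 8 library pairs against 12.5 to 21.2 in the other 28, and values without it are given beside the results below that it moves most.

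Hdac1 and Hdac2 are the closest relatives in the list, and the stretch in which their coding sequences share their longest identical run is shown. It lies towards the start of the coding sequences, while sequencing read the 3′ end, so it only describes how alike they are. Whether reads of 50 bases can be told apart is addressed by the shared words counted below. The coding sequences, 1446 bases for Hdac1 and 1464 for Hdac2 in the GENCODE M21 annotation of GRCm38, were identical at 75.8% of 1443 aligned bases. The longest run of identical bases was 17, at coding positions 241 to 257 of Hdac1 and 244 to 260 of Hdac2, and it is given in capitals with 42 bases on each side.
Hdac1: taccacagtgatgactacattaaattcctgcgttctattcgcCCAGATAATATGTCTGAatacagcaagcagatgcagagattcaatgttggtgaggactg
Hdac2: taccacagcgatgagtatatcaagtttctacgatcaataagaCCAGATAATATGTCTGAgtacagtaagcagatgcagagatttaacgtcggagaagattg
The Hdac1 stretch lies within chr4:129524302-129529008 on the minus strand and the Hdac2 stretch within chr10:36986343-36988098 on the plus strand, each joining exons 3 and 4 across an intron. These 101 bases differed at 20 positions. No word of 50 bases was common to the annotated transcripts of any pair of members. None of the 4468 such words of Hdac2 occurred in a transcript of any other gene, and the same held for Hdac3, Hdac6, Hdac7, Hdac8, Hdac10 and Hdac11. For Hdac1, 35.3% of 3536 words occurred elsewhere, 1121 of them in the processed pseudogene Gm10093, which was not analysed here. Within the last 500 bases of its transcripts, nearer to where 3′ reads fall, the share was 23.2% of 2276 words, 470 of them in Gm10093. The Hdac1 level is uncertain for this reason, by an amount that was not measured.

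Hdac2 (ENSMUSG00000019777) spans chr10:36974544-37001889 on the plus strand, with 4 annotated transcripts of which 2 are coding, and encodes a class I deacetylase of the Sin3, NuRD and CoREST complexes. Its normalized count was 118.8, 111.4 and 93.9 in the Prm2+/+ libraries and 18.1, 16.2 and 15.8 in the Prm2-/- libraries. The Prm2+/- libraries held 113.7, 20.1 and 15.9. All 3 Prm2+/+ libraries and Prm2+/- replicate 1 were high, the other 5 libraries were low, and no library lay between 20.1 and 93.9. The heterozygotes therefore did not form an intermediate group: 1 sat within the Prm2+/+ range, 1 just above the Prm2-/- range and 1 inside it. The recovered counts behind these levels were 85 to 125 in the 4 high libraries and 15 to 22 in the 5 low ones. The exact Poisson 95% intervals, which cover counting error only, reached up to 33.3 counts among the low libraries and down to 67.9 among the high ones. They treat the counts as independent reads, although the counts were derived from transcript coverage. They describe the values for which Hdac2 was chosen.

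The mean Hdac2 level was 108.1 ± 12.8 in Prm2+/+, 49.9 ± 55.3 in Prm2+/- and 16.7 ± 1.21 in Prm2-/- (SD, n = 3). On the log2(normalized count + 1) scale used for all differences below (LFC), Prm2-/- stood at -2.62 against Prm2+/+, and at -2.71 without Prm2+/+ replicate 3. The LFC was -1.66 for Prm2+/- against Prm2+/+ and -0.96 for Prm2-/- against Prm2+/-. Without Prm2+/- replicate 1 the difference between Prm2+/- and Prm2+/+ was -2.52 and that between Prm2-/- and Prm2+/- was -0.093. These differences were -1.30 and -1.31 without Prm2+/- replicate 2, and -1.14 and -1.47 without Prm2+/- replicate 3. No other annotated gene lay within 100 kb of Hdac2, and the nearest protein-coding gene, Marcks, began 131486 bases away. Marcks ranged from 192.3 to 358.0 normalized counts over the 9 libraries and from 279.5 to 344.0 in the Prm2+/- libraries.

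**Figure D1:**
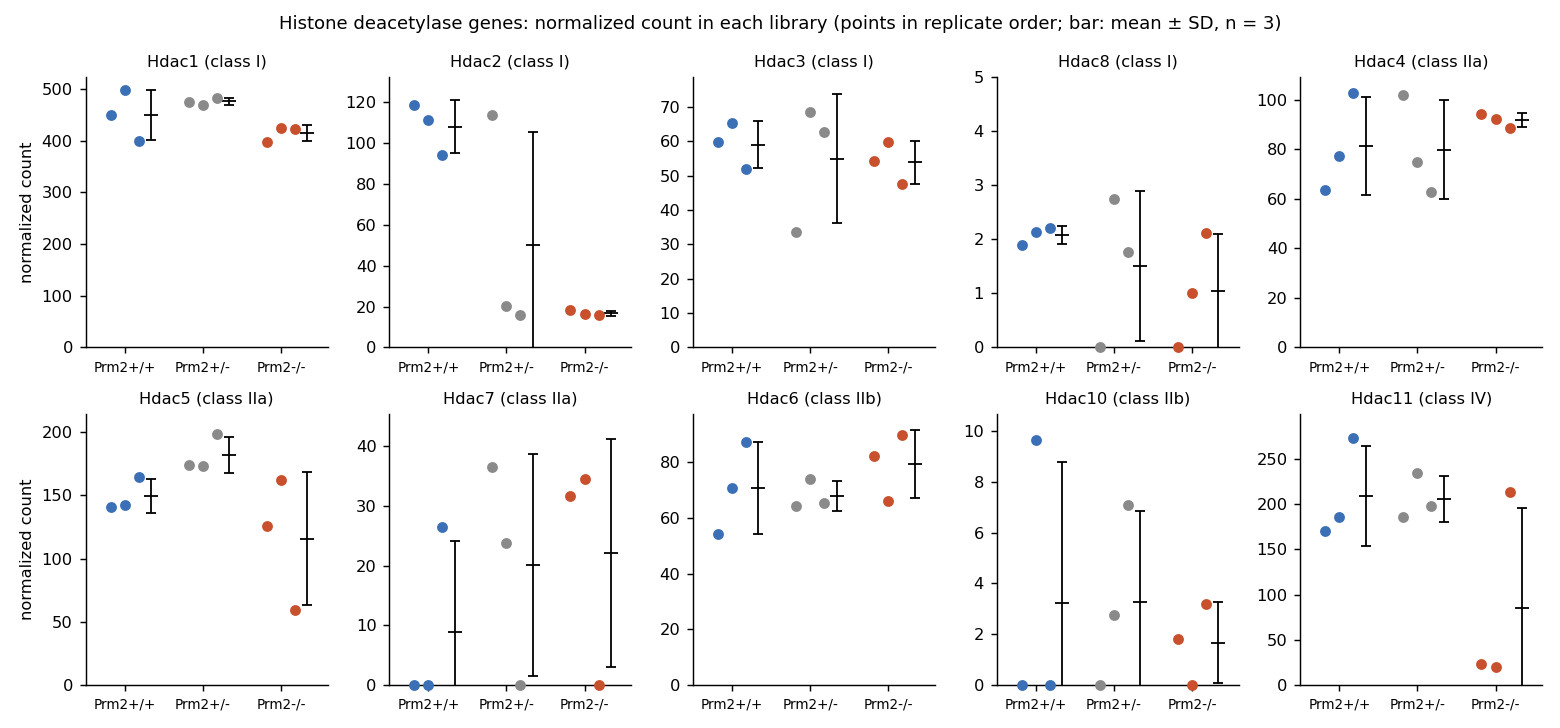
Normalized count (vertical axis, linear, its own scale in each panel) of the 10 histone deacetylase genes in each testis library, by genotype (horizontal axis). Points are libraries in replicate order and bars are the mean ± SD of 3, shown down to 0 only. Hdac2 is high in the 3 Prm2+/+ libraries and in Prm2+/- replicate 1, Hdac11 is low in Prm2-/- replicates 1 and 2, Hdac7 is at 0 in 4 libraries, and Hdac1 lies between 396.7 and 497.2 throughout.

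Hdac1, the partner of Hdac2 in the same complexes, was the most highly counted member. Its normalized count was 450.4, 497.2 and 400.0 in Prm2+/+, 475.5, 469.5 and 483.3 in Prm2+/-, and 396.7, 425.2 and 422.4 in Prm2-/-. The highest library held 1.25 times the lowest, the narrowest spread of the family. The Prm2-/- libraries overlapped the Prm2+/+ ones and lay below all 3 Prm2+/- ones. The LFC was -0.11 (95% interval -0.33 to 0.11, adjusted p = 0.776) for Prm2-/- against Prm2+/+ and -0.20 (-0.42 to 0.02, adjusted p = 0.952) against Prm2+/-, by limma with Benjamini-Hochberg adjustment over 14893 genes. The ratio of Hdac2 to Hdac1 was 0.224 to 0.264 in Prm2+/+, 0.239, 0.0428 and 0.0329 in the Prm2+/- libraries, and 0.0375 to 0.0457 in Prm2-/-.

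Of the remaining class I genes, Hdac3, the catalytic subunit of the NCoR and SMRT co-repressors, held 59.1 ± 6.75 normalized counts in wild-type testes, 55.0 ± 18.7 in Prm2+/- and 53.9 ± 6.19 in Prm2-/- (SD, n = 3). Prm2+/- replicate 1, at 33.6, was the lowest of the 9 libraries and the other 8 lay between 47.5 and 68.5. Its LFC between Prm2-/- and Prm2+/+ was -0.13 (95% interval -0.74 to 0.48, adjusted p = 0.911). Hdac8, an X-linked class I enzyme known for deacetylating cohesin, had at most 3 counts in any library and none in Prm2+/- replicate 1 and Prm2-/- replicate 1. At this depth no difference in Hdac8 could be seen, and it did not enter the fit.

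Among the class IIa genes, Hdac5 was highest in the heterozygotes. Its normalized count was 140.6, 142.5 and 164.6 in Prm2+/+, 174.0, 173.6 and 198.8 in Prm2+/-, and 125.9, 162.4 and 59.1 in Prm2-/-. Every Prm2+/- library lay above every other library, and Prm2-/- replicate 3 lay well below the rest. The LFC for Prm2-/- against Prm2+/- was -0.76 (SE 0.33, 95% interval -1.52 to -0.01), with an adjusted p of 0.914, and it was -0.34 without Prm2-/- replicate 3. Against Prm2+/+, the LFC was 0.29 (adjusted p = 0.851) in Prm2+/- and -0.48 (adjusted p = 0.751) in Prm2-/-. The latter was -0.058 without Prm2-/- replicate 3 and -0.78 without Prm2-/- replicate 2. None of these passed the test.

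Hdac7, also of class IIa, was either at 0 or at a similar level. It was at 0 in Prm2+/+ replicates 1 and 2, Prm2+/- replicate 3 and Prm2-/- replicate 3, and held 26.5 normalized counts in Prm2+/+ replicate 3, 36.6 and 23.7 in Prm2+/- replicates 1 and 2, and 31.7 and 34.5 in Prm2-/- replicates 1 and 2. Each genotype thus held libraries of both kinds. The lowest level above 0 was 7.39 times the normalized count that 3 counts would give in any of the 4 libraries at 0. The intervals of the Hdac7 LFC were correspondingly wide, from -2.93 to 6.53 for Prm2-/- against Prm2+/+ (LFC 1.80, adjusted p = 0.815; 3.39 without Prm2+/+ replicate 3). Its annotation overlaps that of Slc48a1 on the opposite strand by 29 bases. Whether strand was used in counting is not given in the sources used here, and Slc48a1 held 92.3 to 146.3 normalized counts in all 9 libraries, including those with Hdac7 at 0.

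Hdac4, which like Hdac5 and Hdac7 is of class IIa, ranged from 62.7 to 102.8 normalized counts and its genotype ranges overlapped in every comparison. The Prm2-/- libraries were close together at 88.7 to 94.2, against 63.7 to 102.8 in Prm2+/+ and 62.7 to 101.8 in Prm2+/-. The LFC between Prm2-/- and Prm2+/+ was 0.20 (95% interval -0.31 to 0.72, adjusted p = 0.809), and 0.38 without Prm2+/+ replicate 3. Hdac9, the class IIa gene outside the list, held 8.57 to 22.8 normalized counts, with an LFC of 0.30 (adjusted p = 0.816) for the same comparison.

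Class IIb comprised a steady and a scarce gene. Hdac6, the X-linked deacetylase of α-tubulin, held 70.7 ± 16.6 normalized counts in wild-type testes, 67.9 ± 5.32 in Prm2+/- and 79.4 ± 12.2 in Prm2-/- (SD, n = 3), with an LFC of 0.18 (95% interval -0.28 to 0.64, adjusted p = 0.811) for Prm2-/- against Prm2+/+. Hdac10, a polyamine deacetylase, had between 0 and 9 counts, with 4 libraries at 0 spread over the 3 genotypes, and like Hdac8 it was too low to be fitted.

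Hdac11 (ENSMUSG00000034245, chr6:91156665-91174692, plus strand), known as a lysine defatty-acylase as well as a deacetylase, showed the widest spread of any fitted member above 0 in all libraries. Its normalized count was 170.1, 185.4 and 272.9 in Prm2+/+, 185.9, 234.8 and 197.9 in Prm2+/-, and 23.5, 19.3 and 213.3 in Prm2-/-. Prm2-/- replicates 1 and 2 were low, while replicate 3 lay inside the range of the other genotypes. Counts of 26 and 19 in the low libraries stood against at least 173 in the 7 others. Their Poisson 95% intervals, with the same limit as for Hdac2, reached up to 38.1 and 29.7. The LFC was -2.12 (SE 0.80, 95% interval -3.96 to -0.28) for Prm2-/- against Prm2+/+, where the adjusted p was 0.630, and also -2.12 against Prm2+/-, where it was 0.878. Without Prm2-/- replicate 3 the LFC was -3.21 in each comparison and passed the limma test. Nothing is read from that refit, because the library left out is the one that differed from Prm2-/- replicates 1 and 2. Whether Hdac11 was called thus depended on that library. Without Prm2+/+ replicate 3 the LFC against Prm2+/+ was -1.91 (adjusted p = 0.641). Prm2+/- and Prm2+/+ stood at an LFC of 0.00 (95% interval -1.84 to 1.84).

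The low libraries were not the same for the members with large steps between libraries. Hdac2 was low in 5 libraries, Hdac11 in Prm2-/- replicates 1 and 2, Hdac5 in Prm2-/- replicate 3, and Hdac7 was at 0 in Prm2-/- replicate 3 but not in replicates 1 and 2. Ordered by level, neighbouring libraries differed by at most 4.67-fold for Hdac2 and 7.22-fold for Hdac11. With every value raised to at least what 3 counts give in its library, so that libraries at 0 count as well, a step of at least 3-fold between neighbouring libraries occurred in 3 of the 8 fitted members (Hdac2, Hdac7 and Hdac11) and in 13.7% of the 14893 fitted genes. Hdac2 was chosen for its difference, which leaves 2 of 7. The floor of 3 counts was chosen after seeing the data. Without it, a gene at 0 in any library counted as having no step. On that count 2 of the 8 fitted members (Hdac2 and Hdac11) and 9.45% of the fitted genes had a step of at least 3-fold. Where all 9 libraries were above 0, the median ratio of highest to lowest library was 2.04 among 7 fitted members and 1.87 among 13763 fitted genes. Hdac7 was left out of these 7 members, but Hdac2 was among them. Because Hdac2 was chosen for its difference between libraries, nothing is read from the higher median of the members. The Pearson correlation of each fitted member with Hdac2 over the 9 libraries, which share their genotype groups, ran from -0.35 for Hdac6 to 0.44 for Hdac11.

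**Figure D2:**
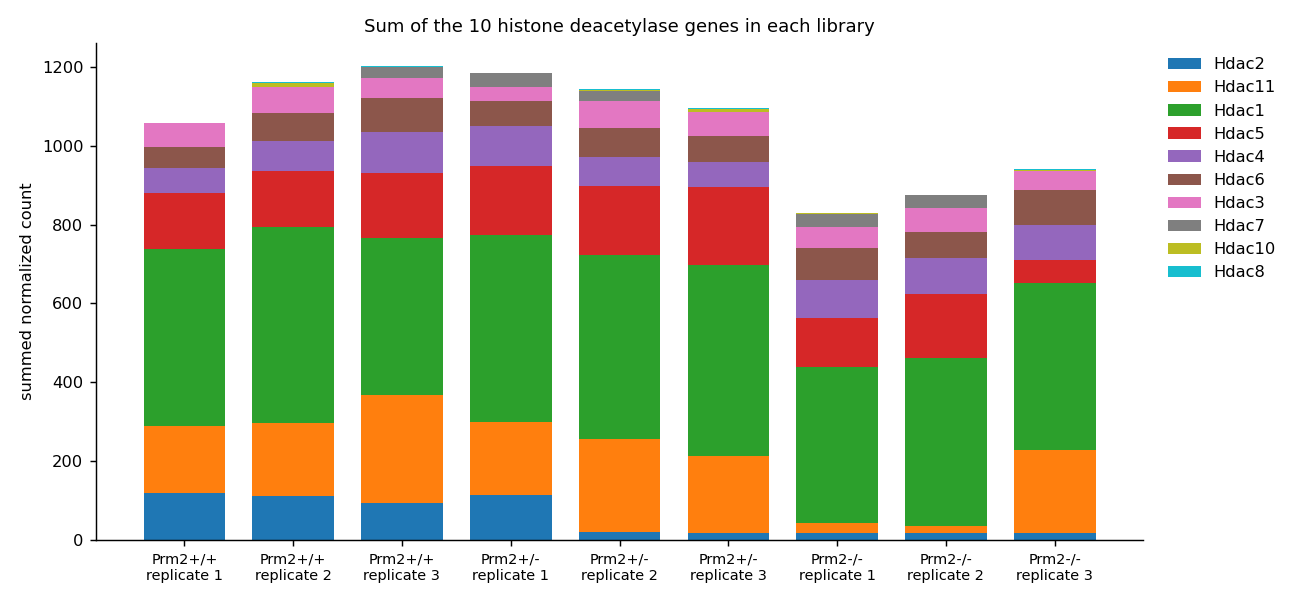
Summed normalized count of the 10 histone deacetylase genes (vertical axis, from 0) in each testis library (horizontal axis), with 1 colour for each gene. The Prm2-/- sums lie between 828.6 and 941.9, below the other 6 libraries at 1059.5 to 1202.2, and Hdac1 is the largest block in every library.

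Added up, the 10 genes held 1141 ± 73.5 normalized counts in wild-type testes, 1142 ± 44.9 in Prm2+/- and 882.4 ± 56.9 in Prm2-/- (SD, n = 3). The Prm2-/- sums lay below those of the other genotypes. This is a description, since Hdac2 was chosen for being low there. Without Hdac2, the Prm2-/- sums of 810.5 to 926.1 still lay below the 940.7 to 1108.3 of Prm2+/+ and the 1071.7 to 1124.5 of Prm2+/-. Without Hdac11 as well, the Prm2-/- sums of 712.8 to 841.2 overlapped the 770.6 to 864.8 of Prm2+/+ and lay below the 881.9 to 889.7 of Prm2+/-. Hdac2 made up 7.81% to 11.2% of the sum in the 3 Prm2+/+ libraries and 9.59% in Prm2+/- replicate 1. In the other 5 libraries its share was 1.45% to 2.19%.

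Levels were also ordered per kb of merged exons, as the length over which each gene is annotated, although 3′ sequencing counts depend little on length. In Prm2+/+ the order of normalized counts per kb was Hdac1 (130.4 ± 14.1), Hdac11 (54.4 ± 14.4), Hdac2 (24.2 ± 2.85), Hdac5 (17.0 ± 1.52), Hdac3 (14.6 ± 1.67), Hdac6 (12.2 ± 2.85), Hdac4 (5.13 ± 1.26), Hdac7 (1.31 ± 2.27), Hdac10 (0.951 ± 1.65) and Hdac8 (0.431 ± 0.0337; SD, n = 3). The library ranges overlapped between Hdac5 and Hdac3, Hdac3 and Hdac6, Hdac7 and Hdac10, and Hdac10 and Hdac8, so those neighbours did not differ beyond their spread. By normalized count not divided by length, Hdac5 took place 3, Hdac2 place 4, Hdac4 place 5 and Hdac3 place 7. In Prm2-/-, Hdac2 held 3.74 ± 0.271 per kb, which put it in place 7 (8 by count), with a per-kb range overlapping that of Hdac7. In Prm2+/- it was in place 6 (7 by count), with libraries from 3.56 to 25.4 per kb.

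**Figure D3:**
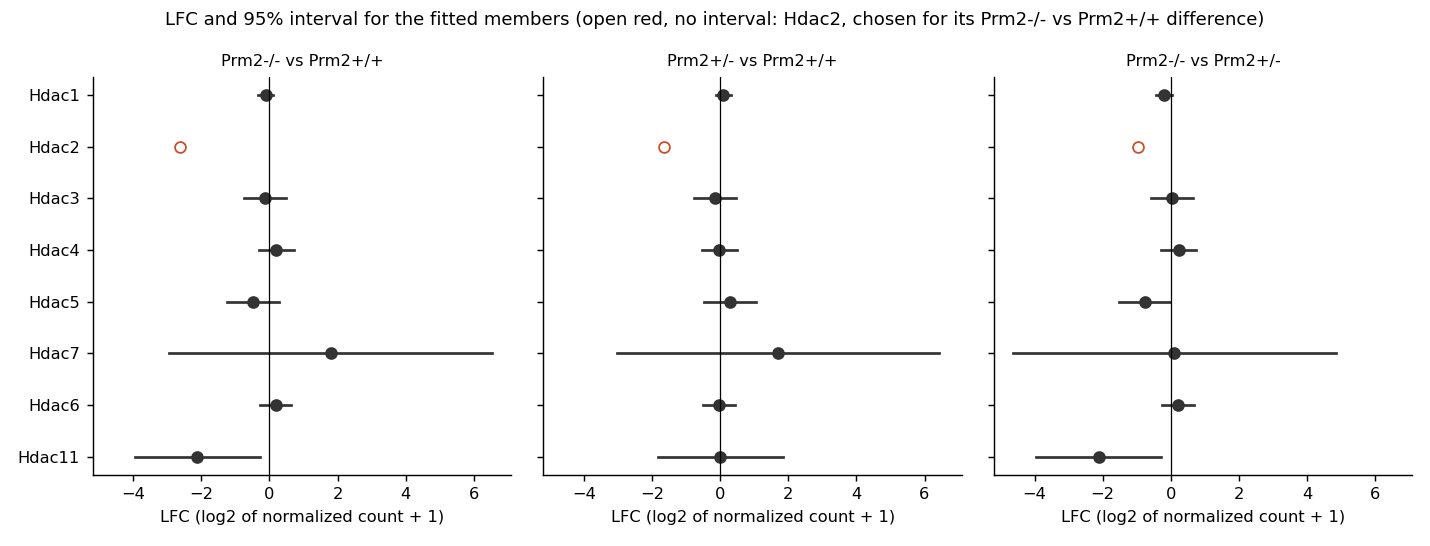
LFC (horizontal axis, difference of log2(normalized count + 1)) of the 8 fitted histone deacetylase genes (vertical axis) in the 3 comparisons, with 95% intervals from limma as lines. Hdac2, in open red, is shown without an interval. The intervals of Hdac1, Hdac3, Hdac4 and Hdac6 span 0 and those of Hdac1 are the narrowest. For Prm2-/- against Prm2+/+, those of Hdac3, Hdac4 and Hdac6 reach beyond an LFC of 0.5 in size. Those of Hdac7 are the widest, and Hdac11 lies at -2.12 in each comparison of Prm2-/-.

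With 8 of 10 members fitted, none of the 7 other than Hdac2 passed an adjusted p of 0.05 with an LFC beyond 0.5 in any comparison by limma. Over all 14893 fitted genes the share called was 0.181% for Prm2-/- against Prm2+/+, 0.0806% for Prm2+/- against Prm2+/+ and 0.175% for Prm2-/- against Prm2+/-. Of the 7 fitted members other than Hdac2, 1 had an unadjusted p under 0.05 for Prm2-/- against Prm2+/+ (Hdac11), 0 for Prm2+/- against Prm2+/+, and 2 for Prm2-/- against Prm2+/- (Hdac5 and Hdac11). The corresponding shares of all fitted genes were 7.33%, 4.24% and 5.44%. edgeR and DESeq2 called none of these 7 members in any comparison either. Library ranges did not overlap for Hdac2 between Prm2-/- and Prm2+/+, lower in the former as were 7.1% of all fitted genes, and nothing is read from this because it chose Hdac2. Hdac5 was higher without overlap in Prm2+/- than in Prm2+/+, as were 4.88% of fitted genes, and Hdac1 and Hdac5 were lower in Prm2-/- than in Prm2+/-, as were 7.25%. These are counts of 1 and 2 among 8 members. No direction was set beforehand, and in either direction the ranges did not overlap for 9.44% and 14.7% of fitted genes in these comparisons.

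The proteins that work with or against these enzymes were followed in 7 lists of 84 genes, of which 82 were in the table and 78 were fitted. In the Sin3 complex, which carries HDAC1 and HDAC2, 1 of 14 genes passed the test. This was Sap130, a subunit that binds the Sin3 scaffold. Its normalized count was 34.2, 23.6 and 23.2 in Prm2+/+, 30.6, 27.4 and 13.3 in Prm2+/-, and 167.5, 183.7 and 134.1 in Prm2-/-. All 3 Prm2-/- libraries lay above all 6 others. Library ranges did not overlap, in either direction, for 2087 of 14893 fitted genes between Prm2-/- and Prm2+/+. Between Prm2-/- and Prm2+/- the number was 2192. Sap130 was higher in Prm2-/- by an LFC of 2.55 (SE 0.32, limma adjusted p = 0.0277) against Prm2+/+ and 2.79 (SE 0.32, adjusted p = 0.0182) against Prm2+/-. Prm2+/- and Prm2+/+ differed by -0.24. The call against Prm2+/+ was lost when any of Prm2+/+ replicates 2 or 3 or the 3 Prm2-/- libraries was left out (adjusted p 0.0627 to 0.132), and that against Prm2+/- when Prm2-/- replicate 1 or 2 was (0.0757 and 0.0886), while the LFC stayed between 2.43 and 3.00. The median LFC of the 14 Sin3 genes for Prm2-/- against Prm2+/+ was -0.03 (0.06 without Prm2+/+ replicate 3), beside 0.02 over all fitted genes, and Arid4b was lowest at -0.20 (adjusted p = 0.755).

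**Figure D4:**
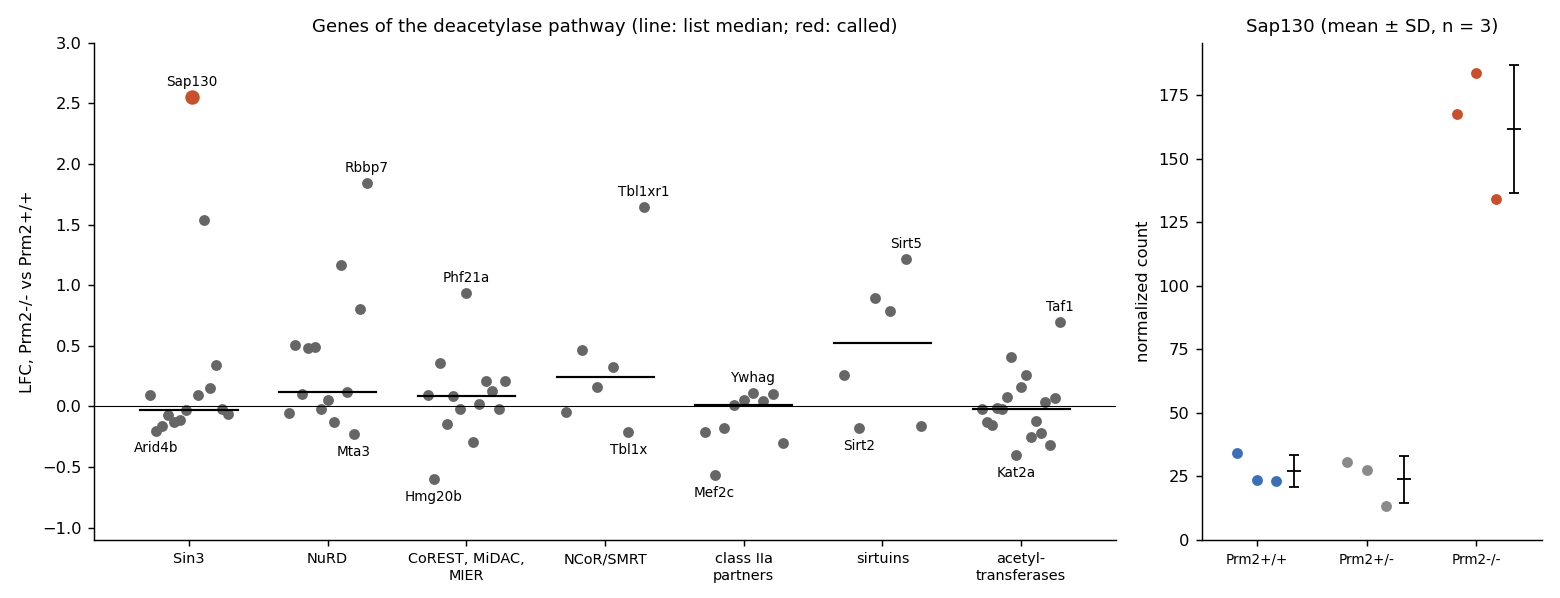
Left, LFC between Prm2-/- and Prm2+/+ (vertical axis) of each fitted gene in 7 lists of histone deacetylase partners, sirtuins and acetyltransferases (horizontal axis), with the list median as a line and the called gene in red. Right, normalized count of Sap130 in each library by genotype, with the mean ± SD of 3. Sap130 is the only called gene, at 134.1 to 183.7 in Prm2-/- against 13.3 to 34.2 in the other 6 libraries.

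In the NuRD complex, which couples HDAC1 and HDAC2 to the Chd3, Chd4 and Chd5 remodellers, none of 13 fitted genes passed the limma test in any comparison, and the median LFC for Prm2-/- against Prm2+/+ was 0.12. The highest was Rbbp7, a histone chaperone, at 1.84 (SE 1.41, adjusted p = 0.755), and the lowest was Mta3 at -0.23 (adjusted p = 0.761). Rbbp7 held 287.9, 28.9 and 51.9 normalized counts in Prm2+/+, 7.91, 290.5 and 341.1 in Prm2+/- and 290.7, 289.2 and 248.2 in Prm2-/-. It was low in 3 libraries, among them Prm2+/- replicate 1, in which Hdac2 was high, and 6.97% of its 50-base words also occur in the processed pseudogene Gm6382. Chd3 held 200.5, 195.0 and 248.6 in Prm2+/+, 183.9, 175.4 and 179.4 in Prm2+/- and 316.1, 262.8 and 339.0 in Prm2-/-. The Prm2-/- libraries lay above all others, with an LFC of 0.51 (limma adjusted p = 0.468) against Prm2+/+ and 0.76 (adjusted p = 0.219) against Prm2+/-. DESeq2 called Chd3 in the latter comparison, and Chd3 is named here after its values were seen. Nothing is read from its separation alone, because ranges also did not overlap for 2087 and 2192 of 14893 fitted genes in these comparisons. Those numbers count either direction, and genes separated in both comparisons at once were not counted.

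No gene of the other lists passed the limma test in any comparison. In the CoREST, MiDAC and MIER complexes, further carriers of HDAC1 and HDAC2, the 13 fitted genes had a median LFC of 0.09 for Prm2-/- against Prm2+/+ and ran from Hmg20b at -0.60 (adjusted p = 0.716) to Phf21a at 0.93 (adjusted p = 0.845). Without Prm2+/+ replicate 3 the median was -0.05 and Phf21a was at 0.22. Among the 6 NCoR and SMRT genes, which carry HDAC3, the median was 0.24, with Tbl1x lowest at -0.22 (adjusted p = 0.807) and the exchange factor gene Tbl1xr1 highest at 1.65 (SE 1.73, adjusted p = 0.801), or 0.81 without Prm2+/+ replicate 3. Tbl1xr1 held 151.1, 5.36 and 4.42 normalized counts in Prm2+/+, 8.90, 148.9 and 137.8 in Prm2+/- and 144.0, 130.9 and 7.39 in Prm2-/-. It was thus high in 5 libraries and low in 4, with both kinds in every genotype.

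For the 9 fitted class IIa partners, which are MEF2 factors and 14-3-3 proteins, the median LFC was 0.01 and the values lay between Mef2c at -0.57 (adjusted p = 0.716; -0.33 without Prm2+/+ replicate 3) and Ywhag at 0.11 (adjusted p = 0.826). The sirtuins, the NAD-dependent deacetylases of class III, had a median of 0.53 over 6 fitted genes, between Sirt2 at -0.18 (adjusted p = 0.819) and the mitochondrial Sirt5 at 1.22 (SE 1.07, adjusted p = 0.775). The median and the Sirt5 value rested on Prm2+/+ replicate 3, in which Sirt5 was at 0, and without it the median was 0.00 and Sirt5 was at -0.23. For the 17 fitted acetyltransferase genes, which add the marks that the deacetylases remove, the median was -0.02. They ran from Kat2a at -0.40 (adjusted p = 0.611) to Taf1 at 0.70 (adjusted p = 0.785; 1.23 without Prm2+/+ replicate 3). Over all 78 genes the median was 0.05.

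**Figure D5:**
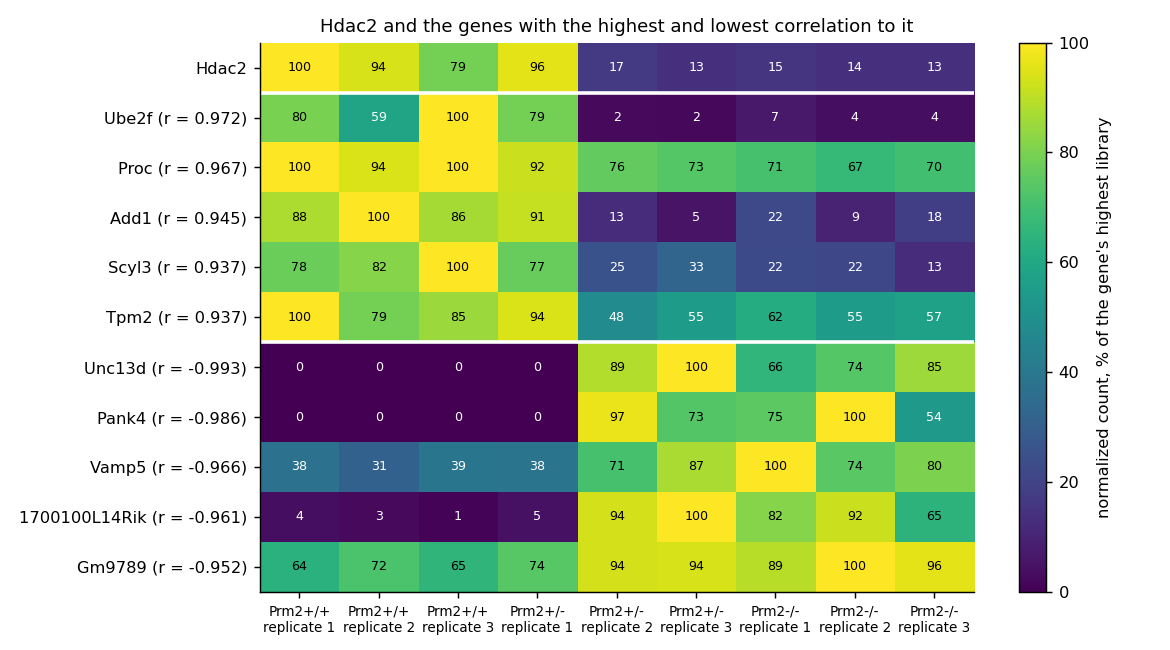
Normalized count of Hdac2 and of the 5 genes with the highest and the 5 with the lowest Pearson correlation to it (vertical axis) in each library (horizontal axis), as a percentage of the gene's own highest library (colour and printed value). Unc13d and Pank4 are at 0 in the 4 libraries in which Hdac2 is high.

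The genes whose pattern was most like that of Hdac2 were ranked by Pearson correlation of log2(normalized count + 1) over the 9 libraries, which share their library preparation, and the values are descriptions. The highest were Ube2f (r = 0.972), Proc (0.967), Add1 (0.945), Scyl3 (0.937) and Tpm2 (0.937). A high r does not mean a large step, and Proc moved only between 27.4 and 40.9 normalized counts over the 9 libraries. Ube2f, which encodes a NEDD8-conjugating enzyme, held 353.5, 259.3 and 443.1 normalized counts in Prm2+/+, 351.0, 10.96 and 8.84 in Prm2+/-, and 29.9, 17.3 and 15.8 in Prm2-/-. Its high libraries were those of Hdac2. Add1, for α-adducin of the membrane skeleton, held 74.0 to 85.7 in these 4 libraries and 4.42 to 19.0 in the other 5. The lowest correlations were those of Unc13d (-0.993), Pank4 (-0.986), Vamp5 (-0.966), 1700100L14Rik (-0.961) and Gm9789 (-0.952). Of these, Gm9789 moved only between 16.2 and 25.4 normalized counts. Pank4, a member of the pantothenate kinase family, was at 0 in the 3 Prm2+/+ libraries and Prm2+/- replicate 1 and held 13.7 to 25.4 in the 5 others. For Unc13d, which encodes a vesicle priming protein, the values were 0 in the same 4 libraries and 8.15 to 12.4 elsewhere. Of the 14892 other fitted genes, 2 reached an r of 0.95 and 5 an r of -0.95 or lower. No other member of the family was among them.

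The summed markers of peritubular cells stood at 292.8 to 325.0 normalized counts in wild-type testes, 253.9 to 276.8 in Prm2+/- and 226.4 to 270.9 in Prm2-/-, with all 4 listed markers in the table and none at 0 throughout. None of the 3 fitted ones passed the test in any comparison. The part of these cells in the levels of the deacetylase genes was not tested. The ranges of the 3 genotypes overlapped for the summed markers of spermatogonia, spermatocytes, Sertoli cells, Leydig cells and macrophages. Such sums do not show single markers. For Prm2-/- against Prm2+/+, the fitted Sertoli cell markers ran from an LFC of -0.09 to 3.70 and the macrophage markers from -0.64 to 1.24, with 0 called. For the spermatid markers the sums were 198231 to 213124 in Prm2+/+, 192502 to 205332 in Prm2+/- and 191003 to 200457 in Prm2-/-.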

How the data were processed

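Testis RNA of 9 males was read by QuantSeq 3′ sequencing with reads of 50 bases. According to the submitters' processing notes and the study's methods, the authors trimmed reads with Trim Galore 0.4.5, aligned them to GRCm38 with HISAT2 2.1, estimated gene counts with StringTie 1.3.3 and its count script, which derives counts from transcript coverage, and removed pseudogenes. The deposited signal is the normalized count: gene counts divided by 1 size factor per library. All values were whole multiples of the value of 1 count (tolerance 0.001), which returned the counts. With 3629929 to 4490411 counts per library, genes under about 10 counts carry little information. Nothing in the sources says whether littermates were used, so p-values measure the spread between these samples only.

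Genes passing edgeR's filterByExpr (14893) were tested by limma 3.58.1 (lmFit, eBayes with trend) on log2(normalized count + 1), all 9 libraries together, with Benjamini-Hochberg adjustment. Calls needed an adjusted p under 0.05 and an LFC beyond 0.5. The fit was also run on simulated counts in which a changed gene shifted alike in all Prm2-/- libraries. That simulation did not model genes that switch between libraries of a genotype, so it does not check the fit for them. The members and lists were chosen with earlier results of these data known. Named genes were the members, Hdac9, Prm2, called genes and the extremes of each list, and the 5 most and 5 least correlated with Hdac2. Annotation came from GENCODE M21, which matched 99.6% of gene rows. Alternatives were other scaling factors, pseudocounts of 0.5 and 5, other filters, only the 6 libraries compared, edgeR 4.0.16, DESeq2 1.42.0, a replicate term and leaving out each library. The values of lists and of their named genes without a library, and the floor of 3 counts for steps between libraries, were chosen after seeing the data.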

Additional observations from a re-analysis of the deposited data

How the results depend on the processing

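With 3 libraries a genotype, members with few counts (Hdac8, Hdac10) or with libraries at 0 (Hdac7) could show only very large differences, and Hdac7 was not fitted where at least 10 counts were asked of every library. The number of members called for Prm2-/- against Prm2+/+ was 0, and 1 with only the 6 libraries compared, 1 with DESeq2 on 9 libraries and 1 with DESeq2 on 6. Leaving out a library gave 0 to 1 in each of the 3 comparisons. The 1 was Hdac11 without Prm2-/- replicate 3, for Prm2-/- against each other genotype, and otherwise Hdac2, from which nothing is read because Hdac2 was chosen on these values. Pathway genes called were 0 to 1 when a library was left out, for Prm2-/- against Prm2+/+ and against Prm2+/-, and in the latter 2 with DESeq2 on 9 libraries (Sap130, Chd3) and 3 on 6 (Sap130, Chd3, Suds3). The cause was not tested.

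Over the leave-one-out fits, members with ranges that did not overlap numbered 1 to 3, 1 to 2 and 2 to 4 for Prm2-/- against Prm2+/+, Prm2+/- against Prm2+/+ and Prm2-/- against Prm2+/-, beside 21.4% to 28.1%, 18.1% to 21.3% and 24.2% to 26.7% of all fitted genes in the same fits. Hdac2 was among the members in every such fit of Prm2-/- against Prm2+/+, the difference for which it was chosen. Nothing is therefore read from the counts of that comparison. They reached 3 without Prm2+/+ replicate 3 (Hdac1, Hdac2, Hdac4) and without Prm2-/- replicate 3 (Hdac2, Hdac7, Hdac11). For Prm2-/- against Prm2+/- the number was 4 without Prm2+/- replicate 1 (Hdac1, Hdac3, Hdac4, Hdac5). Genes correlated with Hdac2 at 0.95 or above numbered 3 to 7, and at -0.95 or below 6 to 17. Small differences turned sign: for Prm2+/- against Prm2+/+ Hdac11 was at -0.019 with edgeR, -0.025 with DESeq2 on 9 libraries and -0.024 on 6, and for Prm2-/- against Prm2+/- Hdac3 was at -0.024, -0.028 and -0.022. Leave-one-out LFCs for Prm2+/- against Prm2+/+ ran from -0.35 to 0.15 for Hdac3, -0.21 to 0.16 for Hdac4, -0.21 to 0.13 for Hdac6, -0.13 to 0.21 for Hdac11 and -0.45 to 0.12 for Sap130. For Prm2-/- against Prm2+/- they ran from -0.28 to 0.22 for Hdac3 and -1.54 to 1.80 for Hdac7. The number of all genes called ranged from 9 to 231 (27 as reported), 1 to 59 (12) and 11 to 158 (26) in the 3 comparisons, lowest with at least 10 counts in every library and highest with DESeq2.

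Deviations of libraries with the same replicate number correlated at -0.04 to 0.04, and 5 of 9 libraries correlated best with their own number, so the numbers were not taken to pair the animals. With a replicate block, 0 members were called in each comparison, pathway genes called were 1, 0 and 1, and all genes called were 15, 6 and 14.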
